A study of Mus musculus with 4 samples.

Results

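The genes described here fold, check and export proteins in the endoplasmic reticulum. They are 38 genes taken from a list of names: 9 chaperones, 5 disulfide enzymes, 3 stress sensors and factors, 4 genes of degradation, 2 subunits of the translocon, 8 genes of collagen folding and 7 genes of vesicle coats and cargo receptors. All 38 were among the 12787 genes named in the files, and all 38 were assembled in each of the 4 libraries. Polyadenylated RNA came from C2C12, an established line of mouse myoblasts, which stop dividing and fuse into myotubes once serum is withdrawn. The labels give its strain as C57BL/6 and name no edited allele or added agent, so every group shares 1 unmodified line in culture. One group, called growth, was harvested at -24 h from cells growing exponentially in medium with high serum. The others were harvested 60 h, 120 h and 168 h after the change to low serum, with 1 library for each time.

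The endoplasmic reticulum receives secreted and membrane proteins through the translocon, folds them with chaperones and disulfide enzymes, and passes them to the Golgi in vesicles coated with COPII. Proteins that do not fold are sent back to the cytosol and degraded. When unfolded proteins build up, the sensors Ern1 (IRE1), Atf6 and Eif2ak3 (PERK) switch on genes of the unfolded protein response, many of which encode the chaperones themselves. Collagen chains need a dedicated set of hydroxylases and chaperones before they can leave the reticulum.

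The unit of level is FPKM (fragments per kilobase, scaled to the size of the library), summed over the assembled transcripts of a gene. The ± gives how far the deposited confidence limit lies from the value, which covers counting error and not the spread between cultures. With 1 library per time no difference can be set against the spread between cultures, and no p-value is given. The words rose and fell are kept for genes past a size rule, with 3 conditions: a difference of 2-fold or more on the log2(FPKM + 1) scale, 1 FPKM or more in the higher library, and separate intervals. Fold values are ratios of FPKM, with the range that the limits allow in brackets. The 3 later libraries were each compared with the same growth library, so those comparisons share it. The libraries held 24488681 to 48228887 fragments, with the fewest at 120 h. The 7 myotube markers summed to 51.9 FPKM in growth and 8055, 11193 and 10264 FPKM at 60 h, 120 h and 168 h. Of these sums Acta1 alone gave 18.4, 5150, 7931 and 7219 FPKM. Ckm and Tnnt3 were not assembled or not named in growth, nor Tnnt3 at 120 h. All 5 myoblast markers were assembled in every library. Those did not move together: from growth to 168 h Vim went from 3604 to 1279 FPKM and Myod1 from 193 to 86.1 FPKM, while Des went from 450 to 2286 FPKM. Of other cell types, adipocyte markers summed to at most 0.75 FPKM, osteoblast and chondrocyte markers to between 0.389 and 13.5 FPKM, and macrophage and endothelial markers to between 0.829 and 10.4 FPKM, with Ptprc, Adgre1 and Pecam1 not assembled in any library. Fewer cells of a type and less RNA per cell cannot be told apart in such pooled cultures.

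Between growth and 60 h, 7 of the 38 genes rose and 5 fell. Those that rose were Ero1l, Atf6, Ern1, Herpud1, Sel1l, P4ha1 and P4ha2, which serve oxidation, stress sensing, degradation and prolyl hydroxylation. Those that fell were Calr, Sdf2l1, Pdia6, Crtap and Sec24d, which serve folding and export. Of all 12310 genes compared, 12.6% rose and 13.5% fell, against 18.4% and 13.2% of these 38. The median log2 ratio was -0.16 over the 38 genes and -0.12 over all genes. After a rescaling of the libraries by their median ratio the median over all genes moved to 0.05 and that over the 38 genes to 0.03. The same rescaling took the share of rises among all calls from 48.3% to 58.8%. It left the 7 rises of the 38 genes in place, and Calr, Crtap and Sec24d were no longer past 2-fold. Because the 38 genes are assembled in every library, the 9798 genes for which this holds are a closer background, and 8.12% of them rose and 12.7% fell. Read through the introns, a second measure of level, 7 of the 38 rose and 5 fell, beside 11.1% and 11.4% of all genes. For most of the 38 this measure is the same number as the sum. It differed only for Ero1l, Serpinh1, Sec31a and Sec61b, so equal counts by both measures are not an independent check in any comparison. At a 1.5-fold rule 7 of the 38 rose and 12 fell, beside 18.3% and 26.2%.

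The later steps moved few of these genes. Between 60 h and 120 h, 1 of the 38 rose and none fell, beside 6.94% and 5.8% of all genes and 5.06% and 2.18% of those assembled in all 4 libraries. Through the introns none rose and none fell, beside 4.18% and 4.54%. Among all calls of that step 54.5% were rises, and 44.2% with the library totals made equal. At 1.5-fold, 3 of the 38 rose and 1 fell, beside 14% and 10.3%. Between 120 h and 168 h, 1 rose and 1 fell, beside 5.44% and 7.13% of all genes and 1.75% and 5.51% of those in all 4 libraries. Through the introns 1 rose and none fell, beside 4.41% and 4.3%, and at 1.5-fold 2 rose and 1 fell, beside 9.7% and 14.5%. Sec61b gave the rise at 120 h and the fall at 168 h, and both were absent when its level was read through its introns, as described with the translocon. The rise at 168 h was that of Sdf2l1. From growth to 168 h, 9 genes rose and 3 fell, beside 17.0% and 19.5% of all genes. Those counts are 23.7% and 7.89% of the 38, and among genes assembled in all 4 libraries 12% rose and 19.2% fell. Through the introns 9 rose and 3 fell, beside 15.7% and 18.4%, and at 1.5-fold 13 rose and 8 fell, beside 23.5% and 30.9%. From growth to 120 h, 7 rose and 5 fell, beside 16.7% and 17.3% of all genes and 11.8% and 14.9% of those in all 4 libraries. Through the introns 7 rose and 5 fell, beside 14.7% and 16.7%, and at 1.5-fold 12 rose and 11 fell, beside 23.7% and 27.6%. The 9 genes that stood higher at 168 h were the 7 named above with Syvn1 and Plod1, and the 3 that stood lower were Hsp90b1, Pdia3 and Pdia6.

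**Figure D1:**
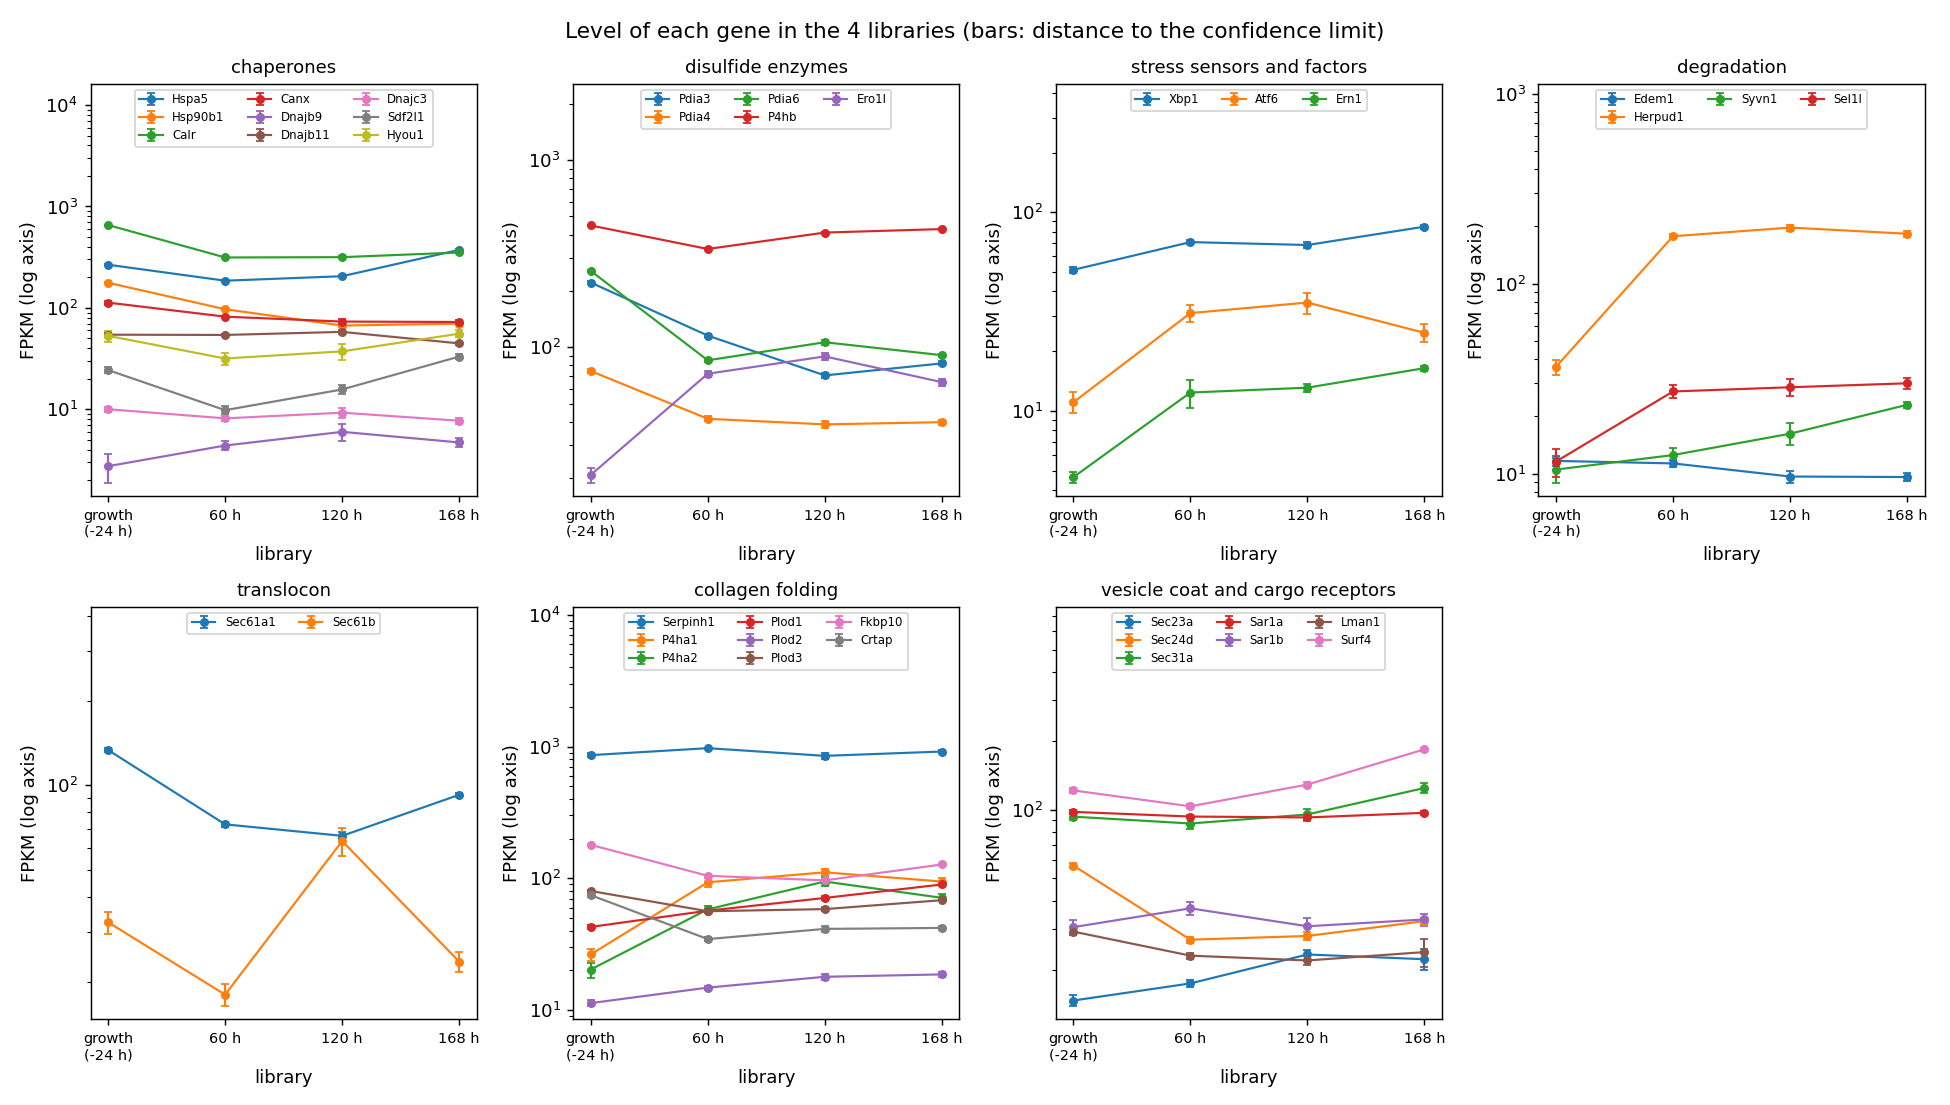
FPKM of the 38 genes on a log axis in the growth, 60 h, 120 h and 168 h libraries, 1 panel for each role, with bars for the distance to the confidence limit. Herpud1, Ero1l, P4ha1, P4ha2, Atf6 and Ern1 are lowest in growth, while Pdia3, Pdia6, Hsp90b1, Calr and Sec24d are highest there.

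Of the 9 chaperones, 2 fell at 60 h and none rose, which is 22.2% lower beside 13.5% of all genes. At 168 h 1 stood lower than growth and none higher, or 11.1% lower beside 19.5%. Their summed level was 1356 ± 12.1 FPKM in growth, 786 ± 6.77 at 60 h, 788 at 120 h and 1013 ± 8.39 at 168 h. The ratio of 60 h to growth was below 1 for 8 of the 9, with a median log2 ratio of -0.52, and of -0.32 after the median-ratio rescaling. At 168 h it was below 1 for 5 and above 1 for 4 (Hspa5, Dnajb9, Sdf2l1 and Hyou1), with a median of -0.28, or -0.06 rescaled. The summed level is mostly that of Calr, Hspa5 and Hsp90b1, and the median level of the 9 genes was 54.4 FPKM in growth and 54.1, 58.0 and 55.6 FPKM later. Calr encodes calreticulin, the soluble lectin that holds new glycoproteins for folding. It stood at 656 ± 6.98 FPKM in growth, 314 ± 3.71 at 60 h, 316 ± 5.22 at 120 h and 352 ± 4.14 at 168 h. Its growth level lay apart from the other 3, and at 60 h the ratio to growth was 0.479 (0.468 to 0.49). Its membrane-bound partner Canx, calnexin, went the same way by less, from 113 ± 4.89 FPKM to 81.9 ± 1.45, 73.2 ± 4.9 and 72.6 ± 3.46, and did not pass the rule.

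Hsp90b1, the HSP90 of the reticulum known as GRP94, stood at 177 ± 2.98 FPKM in growth, 97.0 ± 1.68 at 60 h, 66.9 ± 1.98 at 120 h and 69.9 ± 1.5 at 168 h. It had not passed 2-fold at 60 h and fell by 120 h, with a ratio to growth of 0.378 (0.361 to 0.396). Cut into words of 50 bases, 13.7% of it is found in other annotated genes, so some fragments may be shared with them.

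Hspa5 (BiP), the HSP70 of the reticulum, took another course. Its levels were 266 ± 3.88 FPKM in growth, 185 ± 2.44 at 60 h, 205 ± 3.7 at 120 h and 373 ± 3.69 at 168 h, so 60 h was the lowest library and 168 h the highest, each beyond the limits. The ratio of 168 h to 120 h was 1.82 (1.77 to 1.87), under the 2-fold rule. Sdf2l1, a small protein that works with BiP and its cochaperones, had the same lowest and highest libraries at 24.3 ± 1.73, 9.8 ± 0.887, 15.7 ± 1.58 and 33.1 ± 1.69 FPKM. It fell by 60 h, to 0.402 of growth (0.342 to 0.472), and rose from 120 h to 168 h by 2.11-fold (1.82 to 2.47). Hyou1 (GRP170), a nucleotide exchange factor for BiP, had levels of 53.0 ± 6.54, 31.7 ± 4.19, 37.2 ± 6.52 and 55.6 ± 4.48 FPKM. It was again lowest at 60 h and highest at 168 h, but neither beyond the limits. The intervals of 60 h and 120 h overlapped, as did those of growth and 168 h, and Hyou1 never passed the rule. The other partners of BiP are the DNAJ proteins, which pass it clients. Dnajb11 lay between 44.6 and 58.0 FPKM and Dnajc3 between 7.71 and 10.006 FPKM, with neither past the rule in any comparison. Dnajb9 was the lowest chaperone at 2.75 ± 0.88 FPKM in growth and 4.39 ± 0.465, 5.99 ± 1.12 and 4.71 ± 0.458 later. It did not pass the rule on the values as deposited with a pseudocount of 1 FPKM. At 120 h against growth it passed with a pseudocount of 0.1 FPKM, at a log2 ratio of 1.10, and after the median-ratio rescaling, at 1.01.

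The ER stress element, the site that Atf6 is known to bind with the factor NF-Y, was searched for in the promoters of these genes because it is the classic shared sequence of chaperone genes. It was spelled as CCAAT, then any 9 bases, then CCACG, on both strands, in the RefSeq promoter windows of 250 bases before to 50 after each gene's start (GRCm38.p6). Windows were found for 32 of the 38 genes, the others being Hyou1, Atf6, Sec61a1, Plod2, Fkbp10 and Lman1. Of the 32, 7 held the element, or 21.9%, beside 39 of 32851 promoters in the whole table, or 0.119%. Of 134 other genes of the pathway with a window, 3 held it. Genes of both lists were counted by any of their windows, and the whole table by single windows. Because the element is already known from chaperone genes, its share among them is a description and not an independent result. The 7 genes were Hspa5, Hsp90b1 with 2 matches, Calr, Canx and Dnajc3 among the chaperones, the disulfide enzyme Pdia6, and Syvn1 of degradation. No window of the collagen folding or vesicle coat genes held these letters. The stretches below are shown 5′ to 3′ on the strand that carries the element, with its fixed bases in capitals and 5 bases added on each side. They lie before the start of each gene, at chr2:34772025-34772043 for Hspa5 (plus strand), chr10:86705638-86705656 (minus) and chr10:86705533-86705551 (plus) for Hsp90b1, chr8:84847075-84847093 for Calr (plus), chr11:50325800-50325818 for Canx (minus), chr14:118937827-118937845 for Dnajc3 (plus), chr12:17266491-17266509 for Pdia6 (plus) and chr19:6046532-6046550 for Syvn1 (plus).
Hspa5: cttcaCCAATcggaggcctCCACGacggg
Hsp90b1, far match: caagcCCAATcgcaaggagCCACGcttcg
Hsp90b1, near match: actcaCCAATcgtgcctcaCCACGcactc
Calr: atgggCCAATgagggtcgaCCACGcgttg
Canx: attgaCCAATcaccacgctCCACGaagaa
Dnajc3: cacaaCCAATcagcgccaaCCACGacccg
Pdia6: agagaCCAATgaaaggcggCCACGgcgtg
Syvn1: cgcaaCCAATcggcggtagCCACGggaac

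The 7 genes with the element did not share 1 course. At 60 h against growth their log2 ratios ran from -1.58 to 0.23 with a median of -0.52, with 6 of 7 below 0, and 2 of them fell and none rose. The 25 genes whose window lacks these letters ran from -1.23 to 2.25 with a median of -0.01, and 6 rose and 3 fell. Of all genes 12.6% rose and 13.5% fell. The 25 include Herpud1, with the highest ratio, and Dnajb11, whose windows hold the further element ERSE-II given below. At 168 h against growth the ER stress element was held by Syvn1, which rose, by Hsp90b1 and Pdia6, which fell, and by 4 genes that did not pass the rule. Of all genes 17.0% rose and 19.5% fell at that time. A match is a string of letters and shows no binding. The search took exact letters alone, so stretches that differ from the spelling in any base were neither counted nor marked, in Hspa5 or elsewhere. The whole 250 bases before the start of Hspa5, chr2:34771840-34772089 on the plus strand, are given to place its match, again in capitals, in context.
Hspa5, upstream: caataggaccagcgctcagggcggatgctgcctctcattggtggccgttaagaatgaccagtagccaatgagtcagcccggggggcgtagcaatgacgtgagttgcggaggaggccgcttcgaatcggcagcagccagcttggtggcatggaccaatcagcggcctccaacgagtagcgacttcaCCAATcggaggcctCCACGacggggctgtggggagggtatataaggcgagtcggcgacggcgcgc

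A pair of further elements was searched for after these values had been seen. ERSE-II, spelled as ATTGG, any base and CCACG on both strands, was in 12 of 32851 promoters (0.0365%) and in 2 of the 32 windows, those of Herpud1 and Dnajb11. The Herpud1 match lies 52 to 42 bases before the start (chr8:94386377-94386387, plus strand), and the Dnajb11 match lies after the start. UPRE, spelled TGACGTGG on both strands, was in 222 promoters (0.676%) and in the windows of Sec23a and Sec24d. Among the 134 other pathway genes 10 held it. Both ERSE-II stretches are shown on the strand of the gene, with the element in capitals and 5 bases on each side.
Herpud1: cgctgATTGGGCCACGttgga
Dnajb11: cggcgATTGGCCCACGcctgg

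Among the 5 disulfide enzymes, 1 isomerase fell and the oxidase that recharges the isomerases rose at 60 h, and the other 3 isomerases did not pass the rule at that time. At 168 h 2 isomerases stood lower than growth and the oxidase higher. Rises were 20% of the group at 60 h and at 168 h, beside 12.6% and 17.0% of all genes. Falls were 20% and 40%, beside 13.5% and 19.5%. Pdia6, an isomerase that works with BiP, stood at 256 ± 4.26 FPKM in growth, 85.2 ± 1.76 at 60 h, 106 ± 2.96 at 120 h and 90.7 ± 1.88 at 168 h. All 3 later values lay below the growth value, and it fell to 0.333 of growth at 60 h (0.321 to 0.346). Pdia3 (ERp57), which acts on the glycoproteins held by calreticulin and calnexin, went down in 2 stages, from 222 ± 4.05 FPKM to 115 ± 2.21 at 60 h and 70.8 ± 2.48 at 120 h, with 82.0 ± 1.99 at 168 h. It was just short of 2-fold at 60 h, with a log2 ratio of -0.94, and at 120 h had fallen to 0.319 of growth (0.302 to 0.336). Pdia4 (ERp72) held 74.7 ± 2.09 FPKM in growth and 38.7 to 41.5 FPKM later, and passed 2-fold at 120 h alone and only with the library totals made equal, at a log2 ratio of -1.09.

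P4hb is the isomerase that is also the beta subunit of collagen prolyl 4-hydroxylase. It was the highest of the group, at 447 ± 4.88 FPKM in growth, 335 ± 3.25 at 60 h, 410 ± 5.08 at 120 h and 428 ± 3.92 at 168 h. Growth was its highest library and 60 h its lowest, and the ratio of the highest to the lowest was 1.34. Ero1l, the oxidase that passes electrons from the isomerases to oxygen, was assembled in 2 pieces in every library, so its level through the introns is given first. For each intron this sums the transcripts that contain it, and the median over the introns is taken. That level was 13.1 FPKM in growth, 42.6 at 60 h, 57.7 at 120 h and 44.0 at 168 h. The sums were 20.8 ± 2.0, 72.2 ± 2.51, 89.4 ± 4.14 and 65.1 ± 2.68 FPKM. By both measures Ero1l rose by 60 h, 3.47-fold on the sums (3.06 to 3.97), and growth was its lowest library.

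The stress sensors were the group in which every member stood higher at 60 h, 120 h and 168 h than in growth. Ern1, the sensor kinase and nuclease that cuts Xbp1 RNA, had levels of 4.63 ± 0.309 FPKM in growth, 12.4 ± 2.0 at 60 h, 13.1 ± 0.572 at 120 h and 16.4 ± 0.48 at 168 h. It rose 2.67-fold by 60 h (2.1 to 3.32) and stood 3.54-fold above growth at 168 h. Atf6, the sensor that is cleaved in the Golgi to become a transcription factor, was at 11.04 ± 1.33 FPKM in growth and 31.1 ± 2.91, 35.1 ± 4.32 and 24.7 ± 2.52 later. It rose 2.81-fold by 60 h (2.28 to 3.5), and its growth interval overlapped none of the others. Xbp1, the transcription factor that Ern1 switches on by splicing, was at 51.3 ± 1.96, 70.8 ± 1.81, 68.4 ± 2.52 and 84.7 ± 2.08 FPKM and did not pass the rule, with a ratio of 1.65 (1.55 to 1.76) at 168 h. Each library held 1 Xbp1 transcript with 4 introns. The 26-base piece that Ern1 removes was not seen as an intron, but the smallest intron in the files has 50 bases, so these assemblies cannot show that cut in either state.

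Of the other 17 stress genes, 6 rose at 60 h and none fell, and at 168 h 6 stood higher and 1 lower. The rises are 35.3% of the list at both times, beside 12.6% and 17.0% of all genes. Atf3, a transcription factor of the PERK branch, rose from 1.62 ± 0.375 FPKM in growth to 41.5 FPKM at 60 h and stood at 27.0 ± 1.14 at 168 h. Ddit3 (CHOP), a factor of prolonged stress, was at 11.4 ± 1.77 FPKM in growth and 181 ± 5.55 at 168 h, a ratio of 15.9 (13.3 to 19.4). Trib3, a pseudokinase switched on by Atf4 and CHOP, rose 9.18-fold at 60 h (8.56 to 9.87), and Ppp1r15a (GADD34), which restores translation after stress, rose 7.91-fold (7.29 to 8.63). These genes also answer amino acid shortage and other stresses. Eif2ak3 itself lay between 2.35 and 7.8 FPKM.

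In degradation, 2 of 4 genes rose at 60 h and 3 of 4 stood higher at 168 h, beside 12.6% and 17.0% of all genes. Herpud1, a membrane protein that gathers the ubiquitin ligase complex of the reticulum, showed the greatest rise of the 38 genes at 60 h. It stood at 36.4 ± 3.28 FPKM in growth, 177 ± 4.56 at 60 h, 197 ± 7.26 at 120 h and 183 ± 6.34 at 168 h, so the 3 later libraries lay close together and far above growth. The rise at 60 h was 4.87-fold (4.35 to 5.48). Sel1l, the adaptor of the same ligase, rose 2.34-fold (1.84 to 3.03) from 11.6 ± 1.92 FPKM to 27.0 ± 2.18, with 28.5 ± 2.91 and 29.9 ± 2.14 FPKM later. Syvn1 (HRD1), the ligase itself, moved later, from 10.5 ± 1.6 FPKM in growth to 12.5 ± 1.13, 16.2 ± 2.14 and 23.0 ± 0.747. Only its 168 h value passed the rule against growth, at 2.19-fold (1.84 to 2.67), and it did not pass with the library totals made equal, at a log2 ratio of 0.98. Edem1, the lectin that hands misfolded glycoproteins over for degradation, stayed between 9.59 and 11.7 FPKM.

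Of 21 other genes of degradation, 2 rose at 60 h and none fell, and at 168 h 4 stood higher and 2 lower. The rises are 9.52% and 19.05% of the list, beside 12.6% and 17.0% of all genes. Derlins are membrane proteins through which clients leave the reticulum, and the 2 named by the rule went opposite ways. Derl1 rose from 12.98 ± 3.79 to 97.4 ± 1.74 FPKM at 60 h and stood at 102 ± 1.9 at 168 h. Derl2 had fallen to 0.243 of growth (0.212 to 0.278) at 168 h, when its level was 7.3 ± 0.559 FPKM.

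**Figure D2:**
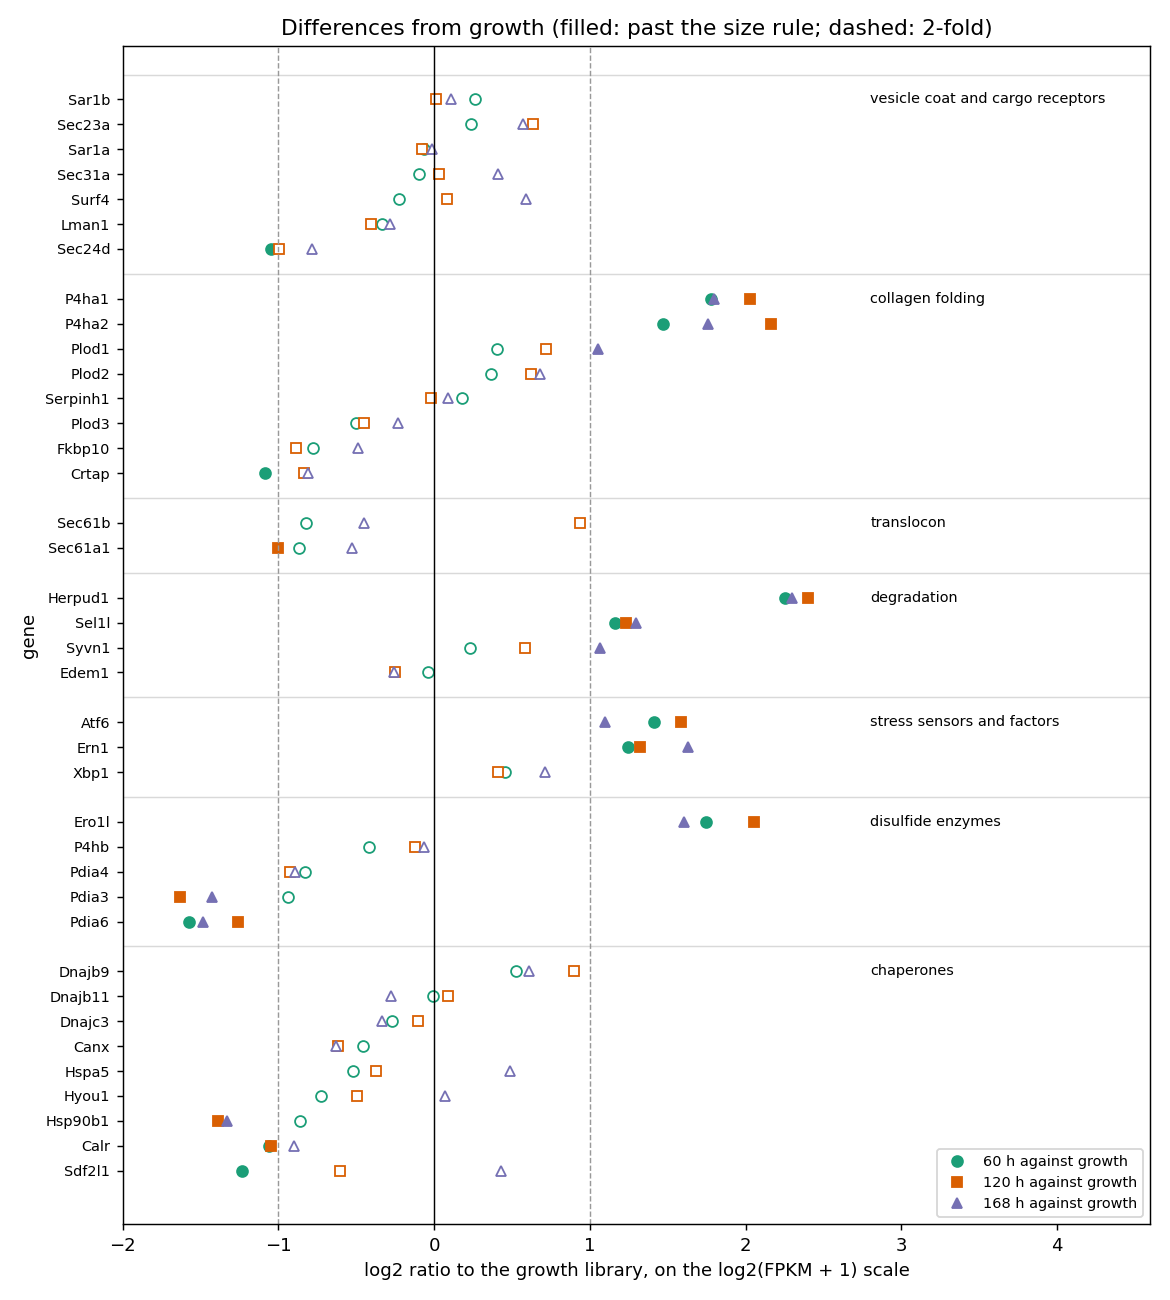
Log2 ratio of each gene at 60 h (circles), 120 h (squares) and 168 h (triangles) to the shared growth library, on the log2(FPKM + 1) scale, grouped by role, with filled symbols for ratios past the size rule and dashed lines at 2-fold. Both prolyl hydroxylase subunits, Herpud1, Sel1l, Atf6, Ern1 and Ero1l are filled on the right at every time, and Pdia6 on the left at every time.

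Neither of the 2 translocon genes passed the rule at 60 h or at 168 h against growth. Sec61a1, the channel subunit, was at 133 ± 2.41 FPKM in growth, 72.6 ± 1.39 at 60 h, 66.04 ± 1.87 at 120 h and 92.4 ± 1.65 at 168 h. Growth was its highest and 120 h its lowest library, and at 120 h it had fallen to 0.495 of growth (0.472 to 0.518), a call lost after the median-ratio rescaling at a log2 ratio of -0.85. Of its words 14.4% are found in another annotated gene. Sec61b, a small subunit of the channel, summed to 32.5 ± 2.9, 18.0 ± 1.65, 63.3 ± 7.31 and 23.6 ± 1.91 FPKM. The 120 h value came from a transcript assembled in 2 pieces, and through the introns it was 31.6 FPKM, at which neither neighbouring step passed the rule. Against growth, 120 h had a log2 ratio of 0.94 on the sums, of 1.09 and past the rule after the median-ratio rescaling, and of -0.04 through the introns. Of its words 40.4% are found in other genes, so its level is uncertain. Of 29 other genes of the translocon and of glycan transfer, none rose and 3 fell at 60 h, and at 168 h none stood higher and 5 lower. The falls are 10.3% and 17.2% of the list, below the 13.5% and 19.5% of all genes. Yet the ratio to growth was below 1 for 25 of the 29 at 60 h and for 22 at 168 h. The median log2 ratios were -0.43 and -0.56, beside -0.12 and -0.11 for all genes, and -0.24 and -0.34 after the median-ratio rescaling. At 1.5-fold 9 and 14 of the 29 were lower, beside 26.2% and 30.9% of all genes. Ssr1, a subunit of the translocon-associated complex, fell from 77.3 ± 1.9 to 20.99 ± 0.538 FPKM at 60 h. Spcs3, a subunit of signal peptidase, fell from 16.7 ± 0.817 to 6.14 ± 0.56 FPKM at 168 h. Srpr, the receptor of the signal recognition particle, was lower at 60 h on the sum, 39.9 ± 1.04 against 98.0 ± 3.53 FPKM in growth. Through its introns the growth level was 38.8 FPKM and the call was lost, and 20.7% of its words occur in other genes.

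In collagen folding, both catalytic subunits of prolyl 4-hydroxylase rose at 60 h, 1 gene fell and the other 5 did not pass the rule. Rises and falls are 25% and 12.5% of the 8 genes, beside 12.6% and 13.5% of all genes. Among genes assembled in all 4 libraries the shares are 8.12% and 12.7%. P4ha1, which binds P4hb and hydroxylates prolines so that the collagen helix is stable, stood at 26.4 ± 2.75 FPKM in growth, 93.3 ± 6.93 at 60 h, 111 ± 5.64 at 120 h and 94.5 ± 6.68 at 168 h. It rose 3.53-fold by 60 h (2.96 to 4.23). P4ha2, the second catalytic subunit, stood at 20.3 ± 2.65, 58.1 ± 3.45, 94.5 ± 7.27 and 71.1 ± 4.3 FPKM and rose 2.86-fold by 60 h (2.38 to 3.49). Both were lowest in growth and highest at 120 h, beyond the limits, and stood 3.57-fold and 3.5-fold above growth at 168 h. Their partner P4hb had no such course, as given above.

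Lysyl hydroxylases prepare collagen for crosslinks and sugars, and the 3 genes differed. Plod1, the form known for helical lysines, was at 42.8 ± 1.42 FPKM in growth, 56.8 ± 1.24 at 60 h, 70.9 ± 1.98 at 120 h and 89.8 ± 1.61 at 168 h. Each interval lay above the one before, and at 168 h it had risen 2.1-fold over growth (2.0 to 2.21), though with the library totals made equal it was short of the rule at a log2 ratio of 0.96. Plod2, the form known for lysines in the ends of the chain, was lower in level, at 11.3 ± 0.633, 14.8 ± 0.548, 17.9 ± 0.952 and 18.7 ± 0.695 FPKM, with no call. Plod3, which also adds sugars, was highest in growth at 80.1 ± 1.98 FPKM and lay between 56.3 and 68.2 FPKM later, with no call. Of its words 13.6% occur in another gene.

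Serpinh1 (HSP47), the chaperone specific to collagen, had the highest sum of the 38 genes in every library, and its sums differed by at most 1.14-fold. Its sums were 860 ± 30.8 FPKM in growth, 972 ± 5.81 at 60 h, 850 ± 45.8 at 120 h and 916 ± 18.9 at 168 h. Through the introns the levels were 538, 972, 696 and 798 FPKM, so the growth level was below that of Calr and the spread was wider. In growth its transcripts made 3 chains of introns, and no comparison passed the rule by either measure. Crtap, part of the complex that hydroxylates prolines at the 3 position, fell to 0.464 of growth at 60 h (0.432 to 0.498), from 74.5 ± 2.49 to 34.6 ± 1.31 FPKM, with 41.3 ± 2.25 and 42.0 ± 1.52 later. Fkbp10, a prolyl isomerase that aids collagen folding, was at 179 ± 2.99, 104 ± 1.8, 96.5 ± 2.42 and 127 ± 2.13 FPKM, highest in growth beyond the limits but never past the rule on the values as deposited.

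Among other genes that modify collagen, those that rose included enzymes acting outside the cell. Of 17 such genes 6 rose and 2 fell at 60 h (35.3% and 11.8%, beside 12.6% and 13.5% of all genes), and at 168 h 8 stood higher and 2 lower (47.1% and 11.8%, beside 17.0% and 19.5%). Adamts2, which removes the amino end of procollagen, went from 3.5 ± 0.371 FPKM in growth to 24.8 ± 0.993 at 60 h and 77.1 ± 1.0 at 168 h. Loxl1, a lysyl oxidase that crosslinks elastin and collagen, rose from 4.57 ± 0.513 to 26.2 ± 0.803 and 50.7 ± 1.36 FPKM. Tmem38b, a cation channel of the reticulum, rose 5.32-fold at 60 h (4.58 to 6.25). The cargo itself was listed as well, and 7 of 13 collagen chains rose at 60 h and 1 fell, or 53.8% and 7.69%. Col1a1 went from 7.02 ± 1.62 FPKM in growth to 142 ± 3.72 at 60 h, a ratio of 20.2 (16.0 to 27.0). Col6a1 was at 3.55 ± 0.456 FPKM in growth and 185 ± 3.11 at 60 h, and Col6a2 at 1.64 ± 1.25 and 85.3 ± 2.11. Col4a1, a chain of basement membranes, was the 1 that fell, from 50.6 ± 4.16 to 20.9 ± 0.535 FPKM. The median log2 ratio of the cargo list was 1.04 at 60 h, beside 0.27 for the 8 genes of collagen folding and -0.12 for all genes.

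**Figure D3:**
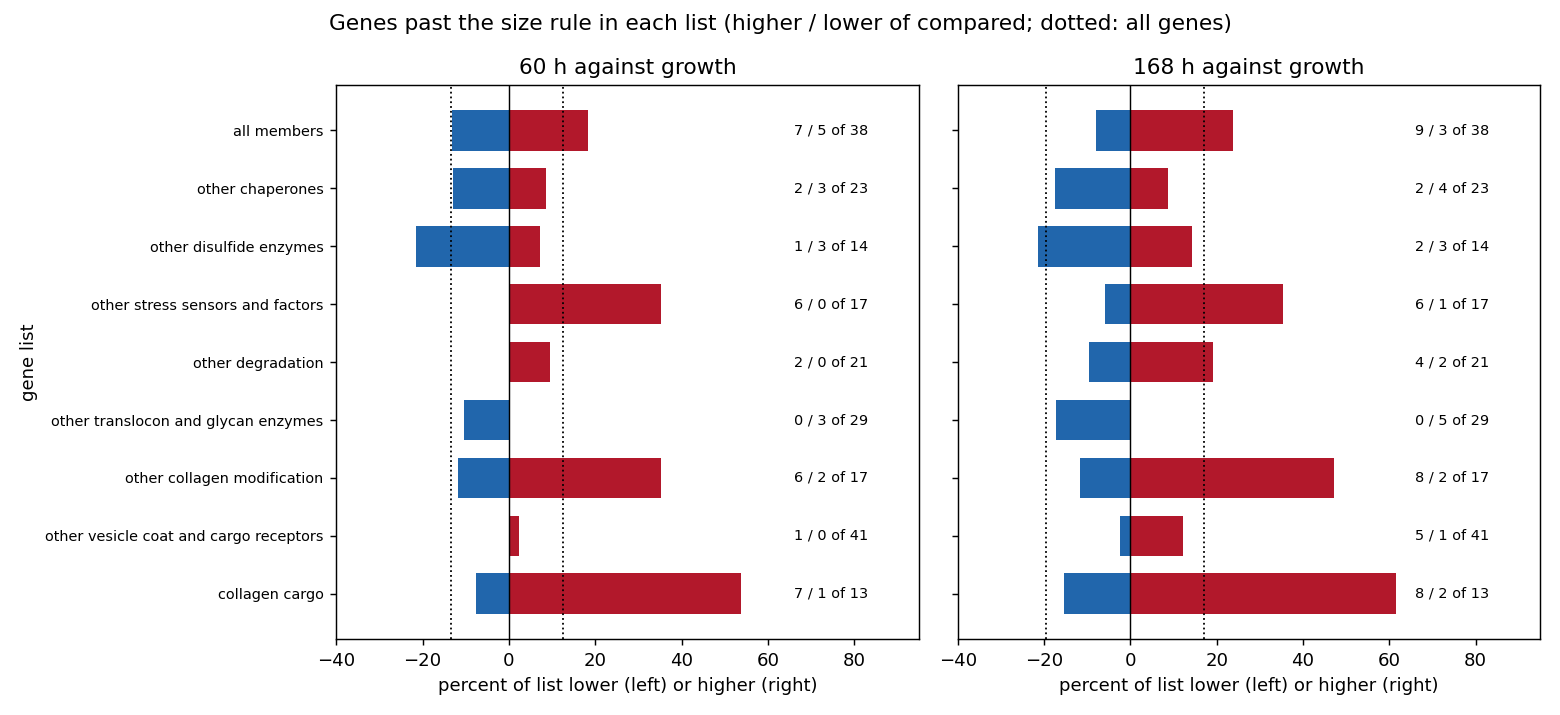
Percent of each gene list that rose (red, right) or fell (blue, left) at 60 h and at 168 h against growth, with the counts written beside the bars as higher / lower of those compared and dotted lines at the shares among all genes. The lists of stress genes, collagen modification and collagen cargo reach past the dotted line on the right at both times, and the translocon list has no bar on the right.

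Of the 7 vesicle coat and cargo receptor genes, 1 fell at 60 h, or 14.3% beside 13.5% of all genes, and none passed the rule at 120 h or 168 h against growth on the values as deposited. Sec24d, the COPII subunit that picks cargo and is known for its part in collagen export, was at 56.9 ± 1.48 FPKM in growth, 27.0 ± 0.801 at 60 h, 28.0 ± 1.15 at 120 h and 32.6 ± 0.896 at 168 h. It fell to 0.475 of growth at 60 h (0.449 to 0.502), and growth lay apart from the other 3 libraries. At 120 h it passed the rule with equal totals, at a log2 ratio of -1.16, and with a pseudocount of 0.1 FPKM, at -1.02. Its inner coat partner Sec23a stood at 14.7 ± 0.845, 17.4 ± 0.623, 23.3 ± 1.16 and 22.2 ± 2.32 FPKM, lowest in growth and without a call. Sec31a, of the outer coat, held 93.1 ± 3.24, 86.9 ± 4.5, 95.2 ± 5.76 and 124 ± 5.9 FPKM, highest at 168 h beyond the limits and without a call.

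The GTPase Sar1, which starts the coat, has 2 genes here. Sar1a lay between 92.4 and 97.7 FPKM, a ratio of 1.06 between its highest and lowest libraries that was the smallest of the 38 genes, and Sar1b between 30.7 and 37.0 FPKM. Of the cargo receptors, Lman1 (ERGIC-53), a lectin for glycoproteins, was at 29.3 ± 1.09 FPKM in growth and 21.9 to 23.9 FPKM later. Surf4, a receptor for several soluble cargoes, was at 121 ± 3.11, 103 ± 2.1, 129 ± 3.22 and 183 ± 2.75 FPKM. It was lowest at 60 h and highest at 168 h, each beyond the limits, as were Hspa5 and Sdf2l1. Hyou1 had the same lowest and highest libraries, but not beyond the limits. The ratio of 168 h to growth for Surf4 was 1.51 (1.45 to 1.58). The median log2 ratio of the 7 genes at 60 h was -0.10, and 0.10 after the median-ratio rescaling, so the group has no direction that holds under both. Of 41 other coat and receptor genes 1 rose at 60 h (2.44%, beside 12.6% of all genes) and none fell, and at 168 h 5 stood higher and 1 lower (12.2% and 2.44%, beside 17.0% and 19.5%). Copz2, a subunit of the COPI coat, was the 1 that rose, from 18.7 ± 1.67 to 63.7 ± 2.21 FPKM, and it stood at 140 ± 3.68 FPKM at 168 h. After the median-ratio rescaling 12 of the 41 stood higher and 1 lower at 168 h, beside 2447 and 1917 of 12320 genes. Whether the rises of this list lie below or above those of all genes thus depends on the scaling. Ergic2, a protein of the compartment between reticulum and Golgi, was at 13.6 ± 1.51 FPKM in growth and is listed at 0 at 168 h, and 20.8% of its words occur in other genes.

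The counts for other chaperones lay at or below those of all genes. At 60 h they lay just above those of genes assembled in all 4 libraries, of which 8.12% rose and 12.7% fell. Of 23, 2 rose and 3 fell at 60 h (8.7% and 13.04%, beside 12.6% and 13.5%), and at 168 h 2 stood higher and 4 lower (8.7% and 17.4%, beside 17.0% and 19.5%). Creld1 rose from 9.69 ± 0.793 to 37.7 ± 1.19 FPKM, and Manf, a stress-induced cofactor of BiP, fell from 248 ± 6.37 to 101 ± 3.14 FPKM at 60 h. Sil1, a nucleotide exchange factor for BiP, stood at 18.6 ± 2.4 FPKM in growth and 79.8 ± 6.44 at 168 h. Fkbp11 fell from 65.4 ± 5.28 to 26.6 ± 2.24 FPKM at 60 h. Of 14 other disulfide enzymes 1 rose and 3 fell at 60 h (7.14% and 21.4%), and at 168 h 2 stood higher and 3 lower (14.3% and 21.4%). Prdx4, a peroxiredoxin that oxidises the isomerases, fell from 114 ± 3.96 to 49.5 ± 2.02 FPKM at 60 h and was at 34.8 ± 1.78 at 168 h. Txndc5 and Tmx1, of the isomerase family, also fell at 60 h, to 0.495 and 0.427 of growth. All 3 falls at 60 h were lost after the median-ratio rescaling, with 1 of the 14 genes higher and 0 lower. At 168 h the rescaling left 3 higher and 1 lower. Selenom, a selenoprotein of the reticulum, stood 4.68-fold above growth at 168 h (4.26 to 5.17).

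Splice forms were compared next. Of the 38 genes 22 had a single chain of introns in all 4 libraries. By a rule of 30 percentage points in the share of 1 chain, with share intervals apart and at least 5 FPKM in both libraries, Sec31a and Serpinh1 changed at 60 h against growth and at 168 h against growth. At 120 h against 60 h the same 2 changed together with Ern1 and Sec61b, and the Sec61b change was the break into pieces given above. At 168 h against 120 h Sec31a, Sec61b and Serpinh1 changed, and at 120 h against growth Sec31a and Sec61b, with Serpinh1 not past the rule. The shares of single exons below were worked out after the data had been seen, except those of P4ha1 and P4ha2, whose alternative exons were looked for by name.

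P4ha1 and P4ha2 each hold a pair of mutually exclusive coding exons, and in both genes the share of the downstream exon was higher in each later library. For P4ha1 the second 71-base exon was in 48.7% of FPKM in growth (41.4% to 56.1%), 54.8% at 60 h, 63.04% at 120 h and 68.9% at 168 h (63.9% to 73.8%). For P4ha2 the 66-base exon was in 35.8% in growth (26.71% to 44.996%), 49.6% at 60 h, 57.9% at 120 h and 65.4% at 168 h (61.2% to 69.7%). The intervals of growth and 168 h lay apart in both genes, while several neighbouring intervals overlapped. The differences from growth to 168 h were 20.2 and 29.6 percentage points, so neither passed 30 points and both passed the alternative rule of 20 points. In FPKM, the P4ha1 form with the second exon went from 12.9 in growth to 51.2, 70.0 and 65.1, and the form with the first from 13.6 to 42.1, 41.0 and 29.4. Both forms of P4ha2 were also higher at 60 h than in growth, at 28.8 against 7.27 FPKM with the 66-base exon and 29.3 against 13.04 without it.

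The exons are shown 5′ to 3′ as GRCm38 gives them, matched through their lengths because no source used here gives the files' build, with capitals for bases that differ from the partner exon in a global alignment. The P4ha1 exons lie at chr10:59354340-59354410 and chr10:59355350-59355420 and the P4ha2 exons at chr11:54126238-54126297 and chr11:54126346-54126411, all on the plus strand and all coding in the annotation. The P4ha1 pair shares 45 bases of 71, and the P4ha2 pair, of 60 and 66 bases, shares 37. Either exon leaves the same reading frame, since the lengths within each pair are equal or differ by a multiple of a codon.
P4ha1, first exon: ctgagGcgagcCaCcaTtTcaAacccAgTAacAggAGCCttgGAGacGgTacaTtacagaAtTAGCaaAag
P4ha1, second exon: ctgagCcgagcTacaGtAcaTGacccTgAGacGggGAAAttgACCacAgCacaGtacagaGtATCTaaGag
P4ha2, 60-base exon: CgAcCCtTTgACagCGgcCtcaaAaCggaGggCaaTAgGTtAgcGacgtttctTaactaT
P4ha2, 66-base exon: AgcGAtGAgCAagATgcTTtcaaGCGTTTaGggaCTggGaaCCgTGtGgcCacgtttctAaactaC

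**Figure D4:**
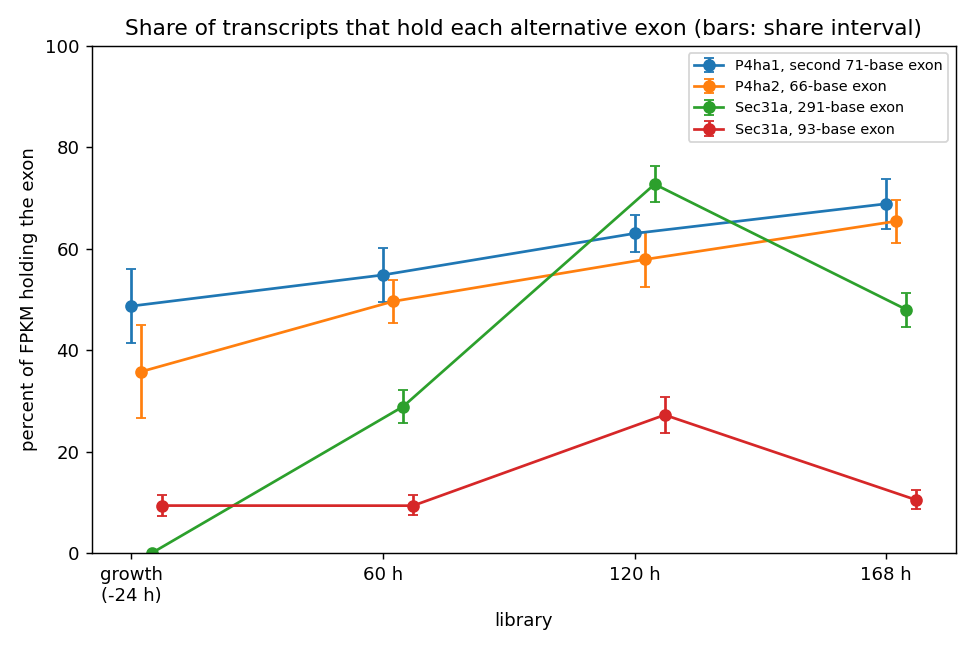
Percent of FPKM between the flanking splice sites that holds each alternative exon in the 4 libraries, with bars for the interval that the confidence limits allow. The P4ha1 and P4ha2 exons go up from 48.7% and 35.8% in growth to 68.9% and 65.4% at 168 h, and the 291-base exon of Sec31a goes from 0% in growth to 72.7% at 120 h and 48.0% at 168 h.

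Sec31a kept its level within 2-fold while the exons of its assembled transcripts differed between libraries. A 291-base coding exon was in no assembled transcript in growth, and in 28.9% of FPKM at 60 h (25.7% to 32.2%), 72.7% at 120 h (69.2% to 76.3%) and 48.0% at 168 h (44.7% to 51.4%). A second coding exon of 93 bases was in 9.38%, 9.37%, 27.3% and 10.5%. At 120 h every transcript across this stretch held 1 of the 2 exons, and none lacked both. The chain without either exon held 90.6% of the gene's FPKM in growth, 56.0% at 60 h and 52.0% at 168 h. It was thus missing only at 120 h, in the library with the fewest fragments. Such shares depend on which chains were assembled in each library, and a change in splicing was not tested apart from that. A separate fragment of the gene at 60 h and 120 h, with an edge of its own, lies outside these shares. Both exons are a multiple of 3 bases long, so they keep the reading frame. They lie on the minus strand of GRCm38, the 291-base exon at chr5:100373425-100373715 and the 93-base exon at chr5:100375961-100376053, and are given here in small letters because they have no partner to compare.
Sec31a, 93-base exon: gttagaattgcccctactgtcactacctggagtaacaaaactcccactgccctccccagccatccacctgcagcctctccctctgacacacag
Sec31a, 291-base exon: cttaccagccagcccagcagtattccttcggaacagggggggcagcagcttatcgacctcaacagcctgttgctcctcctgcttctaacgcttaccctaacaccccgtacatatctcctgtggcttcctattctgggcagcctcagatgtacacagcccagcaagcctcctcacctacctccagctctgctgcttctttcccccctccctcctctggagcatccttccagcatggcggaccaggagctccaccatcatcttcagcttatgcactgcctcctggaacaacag

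Serpinh1 and Ern1 gave the remaining changes. A 44-base exon near the 5′ end of Serpinh1 was in 25.7% of FPKM in growth, in no assembled transcript at 60 h, and in 36.2% at 120 h and 74.2% at 168 h. A 34-base exon of Ern1 was held by all transcripts in growth, at 120 h and at 168 h and by 68.2% at 60 h (56.8% to 79.6%). As for Sec31a, the shares of both genes depend on which chains were assembled in each library. Plod2, in which a 63-base exon is known to be skipped in some tissues, had 1 transcript in each library, and all 4 held that exon.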

How the data were processed

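Per the labels' protocols, polyadenylated RNA was fragmented, reverse transcribed with random primers and read from both ends. Those protocols do not mention strand, so overlapping genes on opposite strands may share fragments. The deposited files list the exons of assembled transcripts, with an RPKM and its confidence limits for each. Values are called FPKM here because they count fragments. The submitters' processing notes list TopHat 1.0.13 and Cufflinks 0.8.0 without saying what each did. The deposited score column was not used. The build of the coordinates was not given in the sources used here.

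Genes were named by matching runs of intron, exon and intron lengths to GENCODE M21. Runs named 122769 of 137519 introns, and 5218 more were named by their own length among genes next to named ones. With the lengths shifted, which gives the chance rate, 1.47% of all introns left unnamed by the runs matched. That is not a share of the 5218, among which the chance share is larger. Of the runs, 0.0138% matched on the opposite strand. The second step and the breaking of ties were widened after a first pass had been seen. The background of genes assembled in all 4 libraries, the single exons, the values split by promoter match and the scalings of each list were also chosen after seeing the data. Level was FPKM summed over the transcripts of a gene, with limits added in quadrature and 0 where nothing was assembled. A second measure was the FPKM through the introns. Library sizes follow from the limits (28513976 fragments in growth, then 48228887, 24488681 and 43845262 in order of time), which cover counting error alone in genes with 1 transcript. The size rule was a 2-fold difference on the log2(FPKM + 1) scale, which understates changes of low genes, with separate intervals and 1 FPKM or more in the higher library. There were 5 comparisons, and 10 alternatives were tried on each. On simulated data for 60 h against growth, 99.4% of 20000 transcripts were named correctly and 0.505% wrongly. All 100 genes changed 4-fold were called, none of the 100 changed 1.5-fold were, and 0.0581% of 10327 unchanged genes were. The naming test used whole transcripts of the same annotation with shifted positions. The calling test drew counts with counting error alone. Neither covers broken assemblies or the spread between cultures, so these are not error rates of the real calls.

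The members and lists were chosen with earlier results of these data known. From each other list, the text names the 3 genes with the largest log2 ratio at 60 h and the 2 with the largest at 168 h against growth, among called genes whose higher library holds 10 FPKM or more. Col4a1, Eif2ak3 and the genes of the single exons were named after their values were seen. To find copies, each gene was cut into words of 50 bases, and the percent found in other annotated genes was taken. Protein sequences were not analysed here. Python 3.11.15, numpy 2.4.6 and pandas 2.3.3 were used.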

Additional observations from a re-analysis of the deposited data

How the results depend on the processing

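No paired analysis was possible because each group holds 1 library. Under alternatives that keep the 2-fold rule, 1520 values of single genes were recomputed. Of these, 1502 kept their direction and side of the rule, 11 lost a call, 7 gained one and none reversed. That total includes 190 values each for no minimum, a minimum of 5 FPKM and multi-exon transcripts alone. Those settings could change no call here, since each member reaches 1 FPKM, each called member reaches 5 FPKM, and no single-exon transcript was assigned. The intron measure also equals the sum for most of these genes. With the median-ratio rescaling, 2 genes fell at 60 h against growth (5 as deposited) and 3 fell and 9 rose at 120 h against growth (5 and 7 as deposited). With equal totals, 8 fell at 120 h against growth and 7 rose at 168 h against growth (9 as deposited). By the intron measure, and by the union of exons, 0 genes rose at 120 h against 60 h and 0 fell at 168 h against 120 h, because Sec61b was in pieces.

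At 1.5-fold, 12 fell at 60 h against growth, 3 rose and 1 fell at 120 h against 60 h, 2 rose at 168 h against 120 h, 8 fell at 168 h against growth, and 12 rose and 11 fell at 120 h against growth. At 4-fold, 1 rose and 0 fell at 60 h against growth, 0 rose at 120 h against 60 h, 0 rose and 0 fell at 168 h against 120 h, 1 rose and 0 fell at 168 h against growth, and 4 rose and 0 fell at 120 h against growth. With 20 points, 5 genes changed their chains at 168 h against growth. The median log2 ratio of the 38 genes changed sign with a scaling in 4 comparisons, to 0.03 at 60 h against growth and 0.10 at 120 h against growth with the median-ratio rescaling, and to -0.03 at 120 h against 60 h and -0.01 at 168 h against growth with equal totals. The limit of a member's value reached at most 32.0% of it. Differences between single libraries include any difference between cultures, which was not measured.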

Other observations

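Smaller differences in splice form were seen in genes of stress sensing and degradation, and were chosen after their values were seen. An Atf6 exon was assembled with 112 or 115 bases, and the shorter form held 7.64% of FPKM in growth, 20.3% at 60 h, 19.4% at 120 h and 12.8% at 168 h, with overlapping intervals throughout. A Herpud1 exon of 72 rather than 75 bases held 5.85% to 10.2%. Sel1l had an exon of 168 or 18 bases, and the longer form held 74.98% in growth (63.2% to 86.7%) and 87.3% at 168 h (82.3% to 92.2%). Syvn1 had 2 chains in the first 3 libraries, and at 168 h 1 of them held all of its FPKM.

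An exon of 75 bases in Sar1b was held by 87.1% to 90.8% of its FPKM in the 4 libraries. Calnexin had a second chain at 6.36% to 7.54% of its FPKM in growth, at 120 h and at 168 h, and none at 60 h, in the deepest library.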
